A study of Mus musculus with 6 samples.

Results

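The expression of 46 genes of glutathione metabolism and of the NRF2 antioxidant response was compared between WT and hnRNPL-deficient activated B cells. The genes were chosen by name from a table of 55421 genes, all 46 were found in it, and 42 had the mean of at least 10 normalized counts that was required for testing. They were divided into 15 glutathione transferases and 31 other antioxidant genes. Splenic B cells of C57BL6/J mice, male and female and older than 6 weeks, were activated ex vivo for 24 h with LPS (5 ug/ml) and IL-4 (5 ng/ml), and GFP+ cells were sorted for RNA-seq from 3 WT and 3 hnRNPL-deficient mice. WT mice were *Rosa mT/mG CD21-cre*, and hnRNPL-deficient mice had the same alleles together with floxed *Hnrnpl F/F*, so that both groups carried the Cre recombinase and the reporter, in which Cre activity switches membrane tdTomato to membrane GFP. *CD21-cre* acts mostly in mature peripheral B cells, and GFP marks cells that have had Cre activity, not the loss of the protein itself.

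Cells keep reactive oxygen species in check with 2 thiol systems, glutathione and thioredoxin, whose oxidized forms are reduced again with NADPH. Glutathione transferases couple glutathione to reactive compounds, glutathione peroxidases and peroxiredoxins reduce peroxides, superoxide dismutases convert superoxide to hydrogen peroxide, and catalase breaks hydrogen peroxide down. The transcription factor NRF2, encoded by *Nfe2l2*, is kept low by KEAP1 and, when released, induces many of these genes through antioxidant response elements in their promoters.

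The 42 tested genes did not move as one group. In hnRNPL-deficient cells 6 transferases rose, *Gstk1*, *Gstm1*, *Gstm4*, *Gstt2*, *Mgst1* and *Mgst3*, by between 0.70 and 1.94 on the log2 scale. Of the other antioxidant genes only catalase, *Cat*, passed the same threshold, and it fell by 0.74. *Nfe2l2*, *Keap1* and the classical NRF2 targets *Nqo1*, *Hmox1*, *Gclc*, *Gclm* and *Srxn1* did not pass. A gene was called higher or lower at a Benjamini-Hochberg adjusted p under 0.1, from limma fitted over 17640 genes, and a fold change of at least 1.5. At that threshold 7.28% of all tested genes were called higher and 4.08% lower, against 6 of 12 transferases higher and none lower, and 0 of 30 other genes higher and 1 lower. Of the 12 transferases 2, *Mgst1* and *Gstt1*, had a WT mean under the minimum of 10 and were tested through their level in hnRNPL-deficient cells. The call of *Mgst1*, counted among the 6, therefore carries no weight of its own. The genes were also chosen with earlier results of these data known, so these shares only describe the list. The median log2 fold change was 0.64 over the tested transferases, -0.13 over the other tested genes and -0.03 over all tested genes, and no test compared the lists with each other. At an adjusted p under 0.1 whatever the fold, which 10.0% of all tested genes passed upwards and 7.97% downwards, the other antioxidant genes had 1 higher and 6 lower. None of these 30 genes was called higher by edgeR or DESeq2 either, which were run on 5 libraries. Under some other settings, given at the end, 1 of them was called higher. In the main fit 2 of them, *Txnrd2* and *Gpx7*, were higher at an unadjusted p under 0.05.

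**Figure D1:**
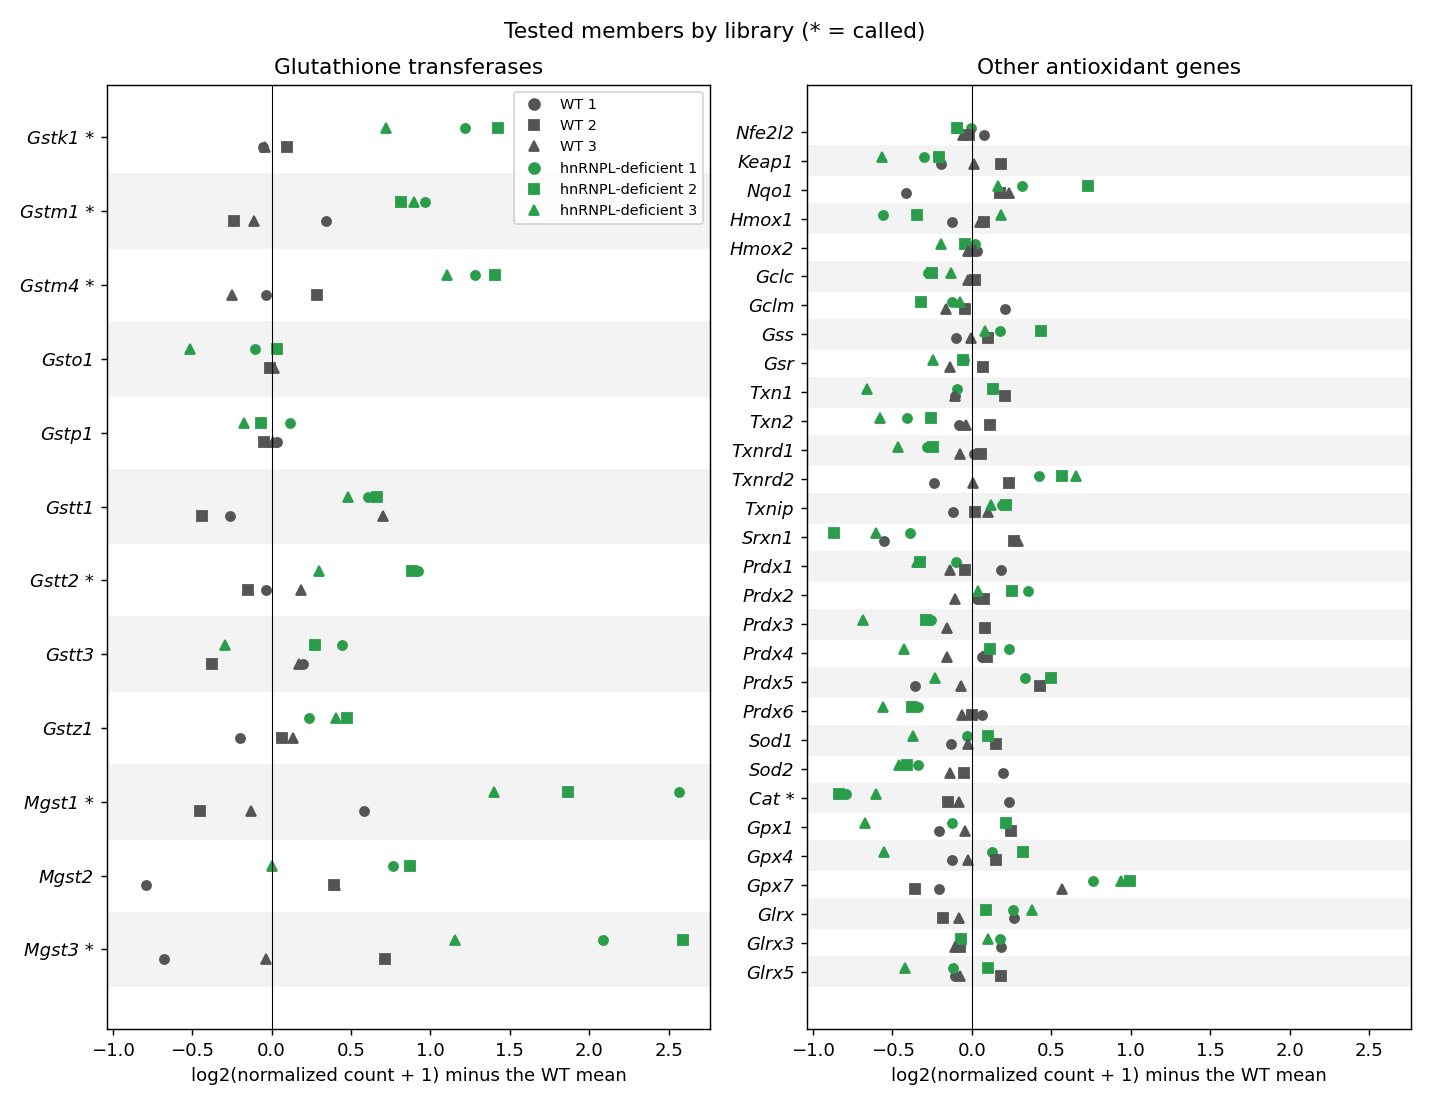
Each tested gene in each library, as log2(normalized count + 1) minus the mean of the 3 WT libraries, with transferases on the left and the other antioxidant genes on the right. Grey symbols are WT and green symbols hnRNPL-deficient libraries, the symbol shape gives the replicate, and an asterisk marks the 7 genes that were called, of which 6 are transferases.

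The libraries held between 40395186 and 75180749 reads on genes, the fewest in hnRNPL-deficient replicate 3. *Hnrnpl* was measured at 24371, 25580 and 24174 normalized counts in WT and at 2178, 1519 and 1297 in hnRNPL-deficient libraries (log2 fold change -3.93, SE 0.17, adjusted p = 2.23e-05). hnRNPL-deficient replicate 3 had lower values for transcripts under 1 kb, with a median deviation of -0.24 on the log2 scale from the mean over libraries, against 0.0049 to 0.084 in the others. It was the lowest of the 3 hnRNPL-deficient libraries for 30 of the 42 tested genes described here, and for 51.3% of all tested protein-coding genes. *Xist* was high in 1 library of each group, WT replicate 3 and hnRNPL-deficient replicate 2, so each group held libraries of both kinds. The summed level of 8 B cell markers was 278668 to 356793 normalized counts in WT and 273445 to 323308 in hnRNPL-deficient cells. Markers of neutrophils summed to 2.74 at most and those of NK cells to 4.11 at most, and *S100a8*, *S100a9*, *Elane* and *Ncr1* were at 0 in every library. The 8 macrophage and monocyte markers summed to 614 to 755 in WT and 1677 to 1813 in hnRNPL-deficient cells, and most of that difference was *Adgre1*, which had 236 to 315 in WT and 1217 to 1369 in hnRNPL-deficient cells, while *Lyz2*, *Cd14* and *Fcgr1* had 2.02 at most in any library. The 7 erythroid markers summed to 17.6 to 38.3 in WT and 55.0 to 84.8 in hnRNPL-deficient cells. Of them *Hbb-bt* was called higher, at 6.88 to 15.1 in WT and 36.1 to 56.5 in hnRNPL-deficient cells (log2 fold change 1.82, adjusted p = 0.0235). *Hba-a1* and *Hba-a2* had 4.64 at most in any library, and *Slc4a1* was at 0 throughout. The 4 stromal and endothelial markers summed to 2644 to 2771 and 3761 to 4478, mostly *Pecam1*, with *Col3a1* at 0 throughout. Among these *Cdh5* was called higher, at 107 to 127 in WT and 268 to 360 in hnRNPL-deficient cells (log2 fold change 1.33, adjusted p = 0.0049). The 6 T cell markers summed to 19.7 to 27.7 and 33.4 to 38.4, the 4 platelet markers to 13.9 to 39.0 and 17.1 to 31.5 with *Pf4* and *Ppbp* at 0 throughout, and the 4 plasma cell markers to 14221 to 16488 and 13373 to 16508. Most of the plasma cell sum was *Xbp1*, whereas *Jchain* was called lower, with 117, 109 and 26.0 normalized counts in WT and 23.4, 7.07 and 13.7 in hnRNPL-deficient cells (log2 fold change -2.31, adjusted p = 0.0509). The part of these differences in the results on the antioxidant genes was not tested, and in RNA from a sorted population fewer cells of a kind and less RNA per cell cannot be told apart.

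The mu class transferases *Gstm1* and *Gstm4*, cytosolic enzymes encoded side by side, rose in hnRNPL-deficient cells whichever library was left out. *Gstm4* (ENSMUSG00000027890.17, chromosome 3, 108040408 to 108044894, minus strand, GRCm38) was at 143, 179 and 123 normalized counts in WT, compared with 358, 391 and 317 in hnRNPL-deficient cells. The groups did not overlap, and the lowest hnRNPL-deficient value was well above the highest WT value. The log2 fold change was 1.27 (SE 0.20, adjusted p = 0.00624), and leaving out any 1 library gave 1.14 to 1.41. *Gstm1* (ENSMUSG00000058135.12, chromosome 3, 108012255 to 108017973, minus strand) had 385, 258 and 281 normalized counts in WT and 594, 535 and 565 in hnRNPL-deficient cells. All 3 hnRNPL-deficient libraries were above all 3 WT libraries, and WT replicate 1 was the closest to them. Its log2 fold change was 0.89 (SE 0.18, adjusted p = 0.0173), and both genes kept their call whichever library was left out. Another gene of the cluster, *Gstm5* (chromosome 3, 107895821 to 107898686, plus strand), was close to silent in WT cells and below the minimum for testing. It had 2 reads over the 3 WT libraries and 38 over the 3 hnRNPL-deficient libraries, 10, 14 and 14 in turn, a depth-scaled ratio of 22.3 (95% exact interval 5.77 to 191.0, for counting error only). Fitted without the minimum, its adjusted p was 0.00548. Of its sequence windows of 100 bases, 9.3% also occurred in another annotated gene, the antisense transcript *4933431E20Rik*, against 7.7% for *Gstm1* and 0.0% for *Gstm4*. *Gstm2*, in the same cluster, had less than 3 normalized counts in every library.

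Within 100 kb of these genes 6 other genes were tested and 0 were called by limma. Of these only *Ampd2*, on the other side of *Gstm4*, had an unadjusted p under 0.05, and it had a log2 fold change of -0.56 (adjusted p = 0.0313), below the fold minimum and opposite in sign. The 250 bases before the RefSeq starts of *Gstm1* (chr3:108017974-108018223, minus strand) and *Gstm4* (chr3:108044860-108045109, minus strand) in GRCm38.p6 are given because the 2 genes rose together, and neither holds the core of an antioxidant response element, described further on.
Gstm1: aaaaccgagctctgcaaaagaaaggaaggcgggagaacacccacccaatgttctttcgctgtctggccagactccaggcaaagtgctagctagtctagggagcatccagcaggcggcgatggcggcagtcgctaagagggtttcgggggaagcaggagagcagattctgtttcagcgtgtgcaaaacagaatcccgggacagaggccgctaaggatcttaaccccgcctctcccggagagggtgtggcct
Gstm4: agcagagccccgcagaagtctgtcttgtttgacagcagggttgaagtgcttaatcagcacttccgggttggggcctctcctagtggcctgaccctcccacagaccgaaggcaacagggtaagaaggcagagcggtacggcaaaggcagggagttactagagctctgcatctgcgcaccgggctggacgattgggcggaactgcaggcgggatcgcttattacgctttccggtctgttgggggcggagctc

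*Mgst1* and *Mgst3*, membrane-bound transferases of the MAPEG family that also reduce lipid peroxides, had the largest fold changes of all 42 genes, from a low level. *Mgst3* (ENSMUSG00000026688.5, chromosome 1, 167371966 to 167393841, minus strand) had 6.96, 19.9 and 11.5 normalized counts in WT and 53.2, 75.7 and 27.4 in hnRNPL-deficient cells. The groups did not overlap, although hnRNPL-deficient replicate 3 lay close to WT replicate 2. The log2 fold change was 1.94 (SE 0.49, adjusted p = 0.0391), and the adjusted p was 0.119 without WT replicate 3, 0.101 without hnRNPL-deficient replicate 1 and 0.118 without hnRNPL-deficient replicate 2. *Mgst1* (ENSMUSG00000008540.11, chromosome 6, 138140316 to 138156755, plus strand) had 8.12, 3.46 and 4.59 normalized counts in WT and 35.2, 21.2 and 15.1 in hnRNPL-deficient cells. Every hnRNPL-deficient library was above every WT library, but the WT mean of 5.39 was itself under the minimum of 10, so that the gene was tested only because it was higher in hnRNPL-deficient cells. The estimate was 1.94 on the log2 scale (SE 0.47, adjusted p = 0.0339), and the adjusted p was 0.109 without WT replicate 2, 0.112 without WT replicate 3 and 0.111 without hnRNPL-deficient replicate 1. *Mgst2*, of the same family, had 16.2, 38.0 and 38.2 normalized counts in WT and 49.6, 53.5 and 28.8 in hnRNPL-deficient cells, overlapping, with a log2 fold change of 0.55 (adjusted p = 0.443).

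*Gstk1*, the kappa class transferase of mitochondria and peroxisomes (ENSMUSG00000029864.7, chromosome 6, 42245935 to 42250447, plus strand), had 34.8, 38.9 and 35.2 normalized counts in WT and 85.6, 98.9 and 60.3 in hnRNPL-deficient cells. The WT libraries were close together and all below the hnRNPL-deficient libraries. It rose by 1.12 on the log2 scale (SE 0.28, adjusted p = 0.0362), and the adjusted p was 0.124 without WT replicate 3, 0.102 without hnRNPL-deficient replicate 1 and 0.122 without hnRNPL-deficient replicate 2. *Gstt2* (ENSMUSG00000033318.7, chromosome 10, 75831114 to 75837424, minus strand), of the theta class, had 837, 773 and 978 normalized counts in WT and 1630, 1586 and 1054 in hnRNPL-deficient cells. The groups did not overlap, with hnRNPL-deficient replicate 3 just above WT replicate 3. It rose by 0.70 on the log2 scale (SE 0.19, adjusted p = 0.045), and the adjusted p was 0.133 without WT replicate 2 and 0.125 without hnRNPL-deficient replicate 1 or 2. Its neighbours *Gstt1* and *Gstt3*, of the same class, were less expressed than *Gstt2*. Their means were higher in hnRNPL-deficient cells (log2 fold change 0.58 and 0.14), but the groups overlapped. *Gstt1* had 6.96, 6.05 and 14.5 normalized counts in WT and 13.5, 14.1 and 12.3 in hnRNPL-deficient cells (adjusted p = 0.422), and *Gstt3*, 23.9% of whose windows were shared with the overlapping readthrough gene *Gm20441*, had 66.1, 44.1 and 65.0 against 78.4, 69.7 and 46.6 (adjusted p = 0.80). *Ddt*, next to this cluster, had a log2 fold change of 0.52 (adjusted p = 0.0693), and of 8 other genes tested within 100 kb 1 was called, lower.

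The remaining transferases were at higher levels or did not pass. *Gstz1*, the zeta class enzyme of tyrosine breakdown, had 406, 488 and 512 normalized counts in WT and 549, 649 and 618 in hnRNPL-deficient cells, which did not overlap. The difference was 0.37 on the log2 scale (SE 0.15, adjusted p = 0.147). With it 7 of the 12 tested transferases were higher without overlap, against 17.7% of all tested genes that were higher without overlap. The 7 include *Mgst1* and the 12 include *Gstt1*, which were tested only through their level in hnRNPL-deficient cells. This count therefore only describes the list. *Gsto1*, of the omega class, had 1209, 1203 and 1224 in WT and 1128, 1240 and 847 in hnRNPL-deficient cells (log2 fold change -0.20, adjusted p = 0.444). *Gsta4*, of the alpha class, had 5.41 normalized counts at most. Over all 15 transferases, tested or not, 12 had the higher mean in hnRNPL-deficient cells and 3, *Gsto1*, *Gstp1* and *Gstm2*, the lower one. When each library was left out, between 2 and 6 transferases were called higher, with 4 without WT replicate 2, 3 without WT replicate 3, 2 without hnRNPL-deficient replicate 1 and 3 without hnRNPL-deficient replicate 2.

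*Gstp1*, the pi class transferase, made up most of the transferase counts and did not pass. It had 10478, 9874 and 10294 normalized counts in WT and 11052, 9763 and 9061 in hnRNPL-deficient cells. The hnRNPL-deficient values lay on both sides of the WT values, the log2 fold change was -0.04 (SE 0.10, 95% interval -0.27 to 0.19, adjusted p = 0.824), and its sign changed under other scalings. Because 52.8% of its windows occurred in other genes, mostly the near-identical *Gstp2*, the division of reads between the copies is uncertain, and *Gstp2* itself had 8190 to 9401 in WT and 8092 to 9712 in hnRNPL-deficient cells. *Gstp1* was 77.0%, 76.4% and 75.8% of the summed normalized counts of the 15 transferases in WT and 70.6%, 67.3% and 71.5% in hnRNPL-deficient cells. All 15 summed to 13600, 12930 and 13586 in WT and to 15644, 14518 and 12677 in hnRNPL-deficient cells. These sums overlapped, with hnRNPL-deficient replicate 3 the lowest of all libraries. Without *Gstp1* the other 14 summed to 3122, 3056 and 3292 in WT and to 4592, 4754 and 3616 in hnRNPL-deficient cells, so that every hnRNPL-deficient sum was above every WT sum. Without *Gstp1*, *Gstt2* and *Gsto1* the sums were 1076, 1081 and 1091 in WT and 1834, 1928 and 1715 in hnRNPL-deficient cells. These sums follow the values above and were not tested.

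**Figure D2:**
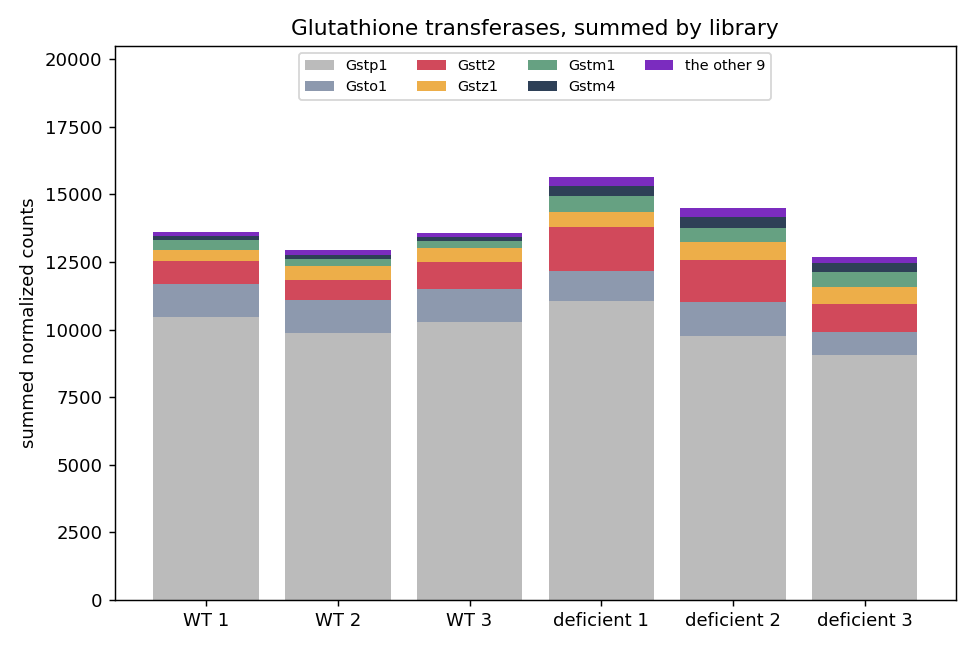
Summed normalized counts of the 15 glutathione transferases in each library, stacked by gene and starting at 0. The grey block, *Gstp1*, makes up 75.8% to 77.0% of the bar in WT and 67.3% to 71.5% in hnRNPL-deficient libraries.

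*Nfe2l2* and *Keap1* were both expressed. *Nfe2l2* had 2844, 2655 and 2589 normalized counts in WT and 2683, 2519 and 2547 in hnRNPL-deficient cells. With overlapping groups, its log2 fold change was -0.06 (SE 0.09, 95% interval -0.28 to 0.15, adjusted p = 0.708). *Keap1*, the adaptor of the ubiquitin ligase that degrades NRF2, had 1750, 2274 and 2025 in WT and 1629, 1740 and 1351 in hnRNPL-deficient cells. All hnRNPL-deficient values were below all WT values, as for 16.3% of all tested genes, but hnRNPL-deficient replicate 2 was next to WT replicate 1. The log2 fold change was -0.36 (SE 0.14, adjusted p = 0.143).

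None of the classical NRF2 targets passed the test. *Nqo1*, a quinone reductase, had 855, 1289 and 1338 normalized counts in WT and 1414, 1893 and 1273 in hnRNPL-deficient cells. hnRNPL-deficient replicate 2 was the highest and WT replicate 1 the lowest, the ranges overlapped, with a log2 fold change of 0.40 (95% interval -0.07 to 0.88, adjusted p = 0.253). *Hmox1*, the inducible heme oxygenase, had 1419, 1634 and 1607 in WT and 1050, 1222 and 1757 in hnRNPL-deficient cells. Its hnRNPL-deficient replicate 3 was the highest of all 6 libraries and the other 2 were the lowest, with a log2 fold change of -0.24 (95% interval -0.66 to 0.18, adjusted p = 0.436). *Hmox2*, the constitutive heme oxygenase, overlapped between the groups, with 4714, 4609 and 4536 in WT and 4691, 4473 and 4041 in hnRNPL-deficient cells (adjusted p = 0.656). *Srxn1*, the sulfiredoxin that repairs overoxidized peroxiredoxins, was low, at 12.8, 23.3 and 23.7 in WT and 14.4, 10.1 and 12.3 in hnRNPL-deficient cells. WT replicate 1 lay among the hnRNPL-deficient values, and the log2 fold change was -0.62 with a wide 95% interval, -1.51 to 0.27 (adjusted p = 0.344).

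Neither subunit of glutamate-cysteine ligase, the enzyme of the first step of glutathione synthesis, passed the test. *Gclc*, the catalytic subunit, had 4042, 4082 and 3951 normalized counts in WT and 3329, 3386 and 3675 in hnRNPL-deficient cells. The groups did not overlap, but the difference was small, -0.22 on the log2 scale (SE 0.09, adjusted p = 0.161). *Gclm*, the modifier subunit, had 3884, 3267 and 2999 in WT and 3090, 2688 and 3188 in hnRNPL-deficient cells, overlapping (log2 fold change -0.17, adjusted p = 0.409). *Gss*, glutathione synthetase, and *Gsr*, glutathione reductase, had log2 fold changes of 0.23 and -0.12 and did not pass (adjusted p = 0.357 and 0.528).

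The core of the antioxidant response element, TGACNNNGC on either strand, was looked for between 250 bases before and 50 bases after the RefSeq starts in GRCm38.p6. Of the 46 genes 40 had such a window and 8 of these held the core, compared with 14.0% of all 27025 genes with a window. The share was 2 of 13 transferases (15.4%) and 6 of 27 other antioxidant genes (22.2%). Of the called genes with a window only *Mgst1* held the core, and the windows of *Gstk1*, *Gstm1*, *Gstm4*, *Mgst3* and *Cat* did not, which says only that these letters are not in this window. The 8 matches are shown to give the letters found in these windows beside the values of their genes, with the core in capitals and 10 bases on each side, in the direction of the gene.
Mgst1 (chr6:138140461-138140489): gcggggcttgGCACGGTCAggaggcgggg
Gstm5 (chr3:107895802-107895830): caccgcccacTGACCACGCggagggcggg
Nfe2l2 (chr2:75704885-75704913): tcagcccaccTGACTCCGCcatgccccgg
Srxn1 (chr2:152105542-152105570): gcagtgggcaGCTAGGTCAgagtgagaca
Gclm (chr3:122245413-122245441): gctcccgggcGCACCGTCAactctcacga
Prdx1 (chr4:116685456-116685484): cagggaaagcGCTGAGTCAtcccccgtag
Txnrd1 (chr10:82859104-82859132): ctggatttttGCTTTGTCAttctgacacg
Sod1 (chr16:90220696-90220724): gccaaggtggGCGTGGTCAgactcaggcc
*Mgst1* and *Gstm5* were higher in hnRNPL-deficient cells, *Txnrd1* was lower below the fold minimum, and the other 5 did not pass.

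Catalase and 5 further enzymes were lower in hnRNPL-deficient cells. *Cat* (ENSMUSG00000027187.10, chromosome 2, 103453849 to 103485160, minus strand), the peroxisomal enzyme that removes hydrogen peroxide, had 10061, 7719 and 8085 normalized counts in WT and 4951, 4797 and 5636 in hnRNPL-deficient cells. All 3 hnRNPL-deficient libraries were well below all 3 WT libraries. The log2 fold change was -0.74 (SE 0.12, adjusted p = 0.00828), the mean was 40.5% below the WT mean, and the call was kept in all 6 fits without 1 library, with log2 fold changes between -0.82 and -0.63. The 250 bases before its RefSeq start (chr2:103485154-103485403, minus strand, GRCm38.p6) are given as those of the only gene called lower among the 46.
Cat: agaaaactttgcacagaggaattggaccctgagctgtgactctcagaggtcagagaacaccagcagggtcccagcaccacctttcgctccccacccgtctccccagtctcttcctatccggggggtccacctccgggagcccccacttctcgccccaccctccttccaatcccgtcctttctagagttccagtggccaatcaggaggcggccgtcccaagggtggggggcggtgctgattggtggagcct

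*Sod2*, the superoxide dismutase of mitochondria, had 5337, 4501 and 4237 normalized counts in WT and 3695, 3525 and 3398 in hnRNPL-deficient cells, without overlap. Its log2 fold change was -0.40 (SE 0.11, adjusted p = 0.0523), below the fold minimum, and the adjusted p was between 0.0841 and 0.124 after the removal of 1 library, under the threshold only without WT replicate 3. *Sod1*, the cytosolic superoxide dismutase, had 5929, 7238 and 6405 in WT and 6368, 6976 and 5036 in hnRNPL-deficient cells, overlapping, with a log2 fold change of -0.10 (adjusted p = 0.679).

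Peroxiredoxins, which reduce peroxides through thioredoxin or, in the case of *Prdx6*, glutathione, were highly expressed. *Prdx6* had 4340, 4139 and 3967 normalized counts in WT and 3275, 3185 and 2810 in hnRNPL-deficient cells. The groups did not overlap, and the log2 fold change was -0.43 (SE 0.10, adjusted p = 0.0302), with an adjusted p of 0.101 without WT replicate 2 and lower without any other library. *Prdx3*, the mitochondrial peroxiredoxin, had 3735, 3766 and 3179 in WT and 2967, 2908 and 2207 in hnRNPL-deficient cells. Here too the groups were apart, but its adjusted p of 0.097 (log2 fold change -0.41, SE 0.14) rose to between 0.108 and 0.233 with any library left out. *Prdx1*, a cytosolic peroxiredoxin, had the highest level per kb of exon of all 46 genes, with 36831, 31369 and 29403 normalized counts in WT and 30186, 25844 and 25484 in hnRNPL-deficient cells. hnRNPL-deficient replicate 1 lay above WT replicate 3, and the log2 fold change was -0.26 (SE 0.12, adjusted p = 0.21). *Prdx2*, *Prdx4* and *Prdx5* had log2 fold changes of 0.21, -0.03 and 0.20 and adjusted p of 0.28, 0.94 and 0.65, and the sign for *Prdx4* changed under several alternatives.

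In the thioredoxin system no gene was called, and 3 passed an adjusted p of 0.1 below the fold minimum, *Txnrd1* and *Txn2* with lower and *Txnrd2* with higher values in hnRNPL-deficient cells. *Txnrd1*, the cytosolic thioredoxin reductase and an NRF2 target, had 13606, 14036 and 12815 normalized counts in WT and 11100, 11347 and 9774 in hnRNPL-deficient cells, all below the WT values. Its log2 fold change was -0.33 (SE 0.10, adjusted p = 0.0634), and the adjusted p was between 0.101 and 0.203 with any library left out. *Txnrd2*, the mitochondrial reductase, had 450, 626 and 535 in WT and 713, 790 and 840 in hnRNPL-deficient cells, all above the WT values. Its log2 fold change was 0.55 (SE 0.16, adjusted p = 0.0569), just below the fold minimum, and the adjusted p rose above 0.1 without WT replicate 1 (0.122) or 3 (0.155) and without hnRNPL-deficient replicate 2 (0.135) or 3 (0.132). The ratio of *Txnrd1* to *Txnrd2* normalized counts was therefore 30.2, 22.4 and 23.9 for WT and 15.6, 14.4 and 11.6 for hnRNPL-deficient libraries, without overlap. It restates the values of these genes and was not tested. The ratios *Txn1* to *Txn2*, *Sod1* to *Sod2*, *Gclc* to *Gclm* and *Nfe2l2* to *Keap1* were also taken, and each overlapped between the groups. *Txn2*, the mitochondrial thioredoxin, had 2994, 3426 and 3086 in WT and 2382, 2650 and 2116 in hnRNPL-deficient cells, without overlap. Its log2 fold change was -0.41 (SE 0.12, adjusted p = 0.0535), with an adjusted p of 0.179 without WT replicate 2, 0.136 without WT replicate 3, and 0.123 and 0.119 without hnRNPL-deficient replicates 1 and 3. *Txn1*, the cytosolic thioredoxin, had 7758, 9629 and 7750 in WT and 7821, 9126 and 5284 in hnRNPL-deficient cells, and hnRNPL-deficient replicate 3 alone was outside the WT range (log2 fold change -0.21, adjusted p = 0.528, and 0.02 without that library). *Txnip*, the thioredoxin inhibitor, had 3747, 4141 and 4372 in WT and 4658, 4737 and 4433 in hnRNPL-deficient cells, higher without overlap but by 0.18 on the log2 scale (adjusted p = 0.281).

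**Figure D3:**
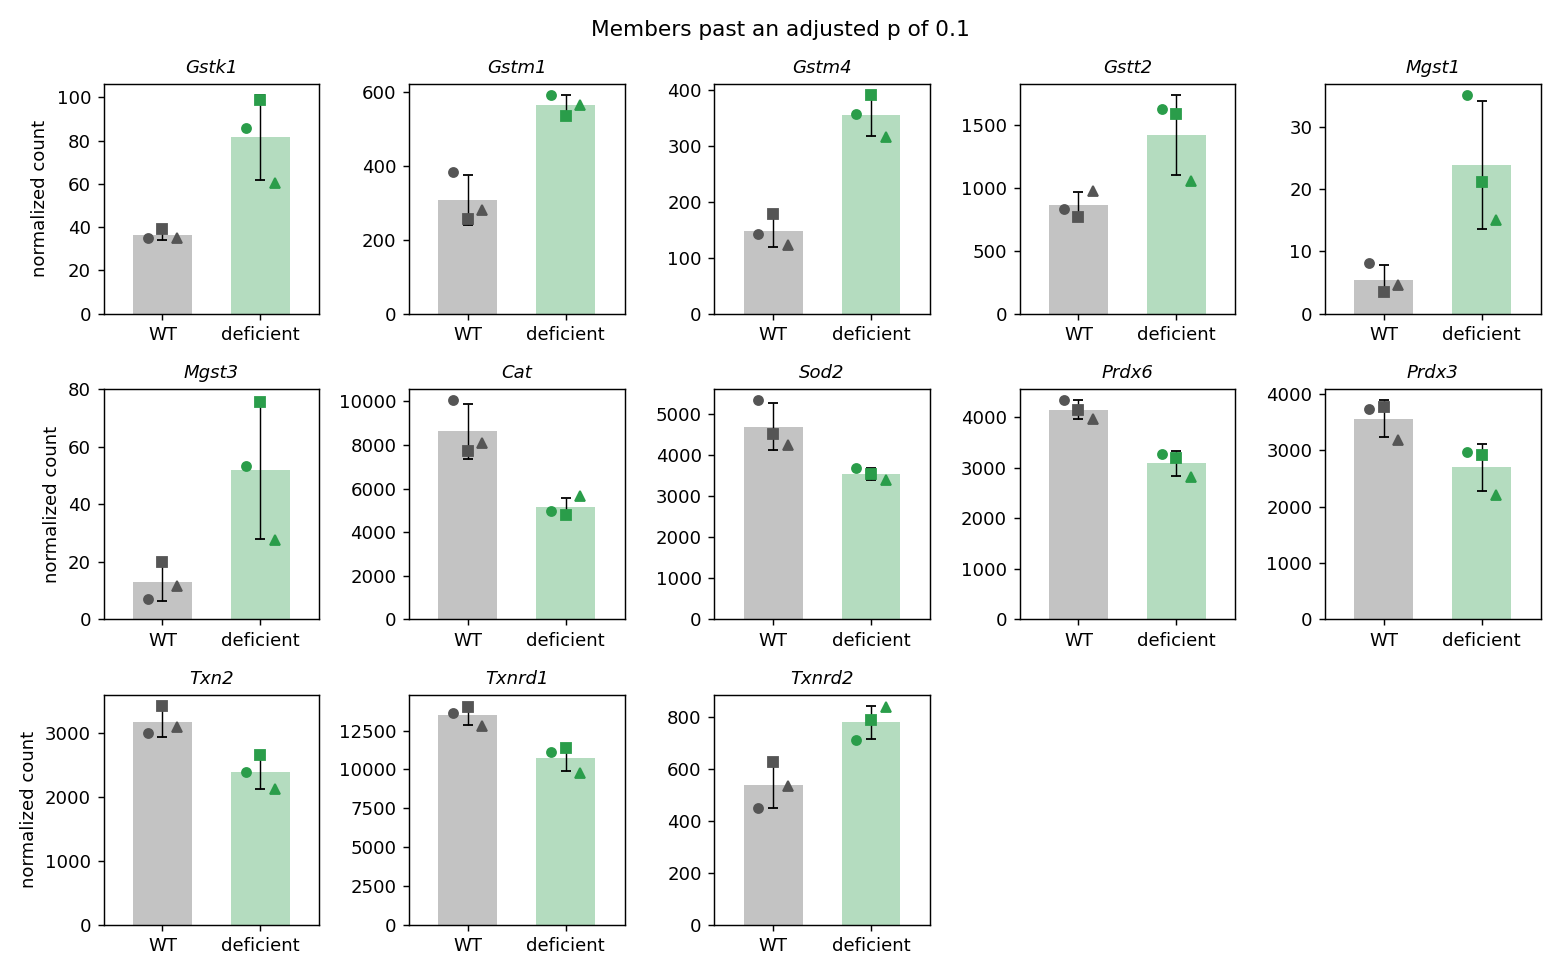
Normalized counts of the 13 genes with an adjusted p under 0.1 whatever the fold, with bars for the mean of 3 libraries per group, error bars for the SD and symbols for single libraries. In all 13 panels the 3 hnRNPL-deficient libraries lie on one side of the 3 WT libraries, higher for the 6 transferases and *Txnrd2* and lower for *Cat*, *Sod2*, *Prdx6*, *Prdx3*, *Txn2* and *Txnrd1*. The 13 genes were selected by p from these same libraries, so this separation is no further support. Over all tested genes 17.7% were higher and 16.3% lower without overlap.

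Glutathione peroxidases and glutaredoxins did not pass. *Gpx1*, the main cytosolic glutathione peroxidase, had 3600, 4921 and 4032 normalized counts in WT and 3805, 4810 and 2601 in hnRNPL-deficient cells, of which only hnRNPL-deficient replicate 3 was outside the WT range (log2 fold change -0.19, adjusted p = 0.596, and 0.04 without that library). *Gpx4*, which reduces lipid peroxides, had 1019, 1236 and 1096 in WT and 1214, 1393 and 759 in hnRNPL-deficient cells, on both sides of the WT values (log2 fold change -0.03, adjusted p = 0.936, and 0.22 without hnRNPL-deficient replicate 3). *Gpx7*, a peroxidase of the endoplasmic reticulum, had 17.4, 15.6 and 30.6 in WT and 35.2, 41.4 and 39.7 in hnRNPL-deficient cells, higher without overlap but with a spread among the WT libraries, and a log2 fold change of 0.90 (SE 0.35, adjusted p = 0.135). *Gpx3*, the secreted enzyme, had 2.59 at most in WT and 9.02 at most in hnRNPL-deficient cells and was not tested. *Glrx3*, an iron-sulfur glutaredoxin, had 9458, 7935 and 7733 in WT and 9434, 7939 and 8952 in hnRNPL-deficient cells, within the WT range (adjusted p = 0.732), and *Glrx* and *Glrx5* had log2 fold changes of 0.24 and -0.15 (adjusted p = 0.313 and 0.581).

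The level of a gene and its change were set side by side per kb of exon. The called transferases were among the less expressed genes, with WT means from 2.68 normalized counts per kb for *Mgst1* to 209 for *Gstm1* and 208 for *Gstt2*, while *Cat* had 3299 per kb, behind only *Prdx1* (10692), *Txn1* (7972) and *Gstp1* (6599). Genes with a log2 fold change above 0.5 had WT means of 209 per kb at most, and standard errors were larger for the lowest genes. In summed normalized counts the 31 other antioxidant genes had 138319, 134456 and 124648 in WT and 121083, 118391 and 106384 in hnRNPL-deficient cells, so that the hnRNPL-deficient sums were lower in all 3 libraries. *Prdx1* alone was the largest part of these sums, and they were not tested.

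**Figure D4:**
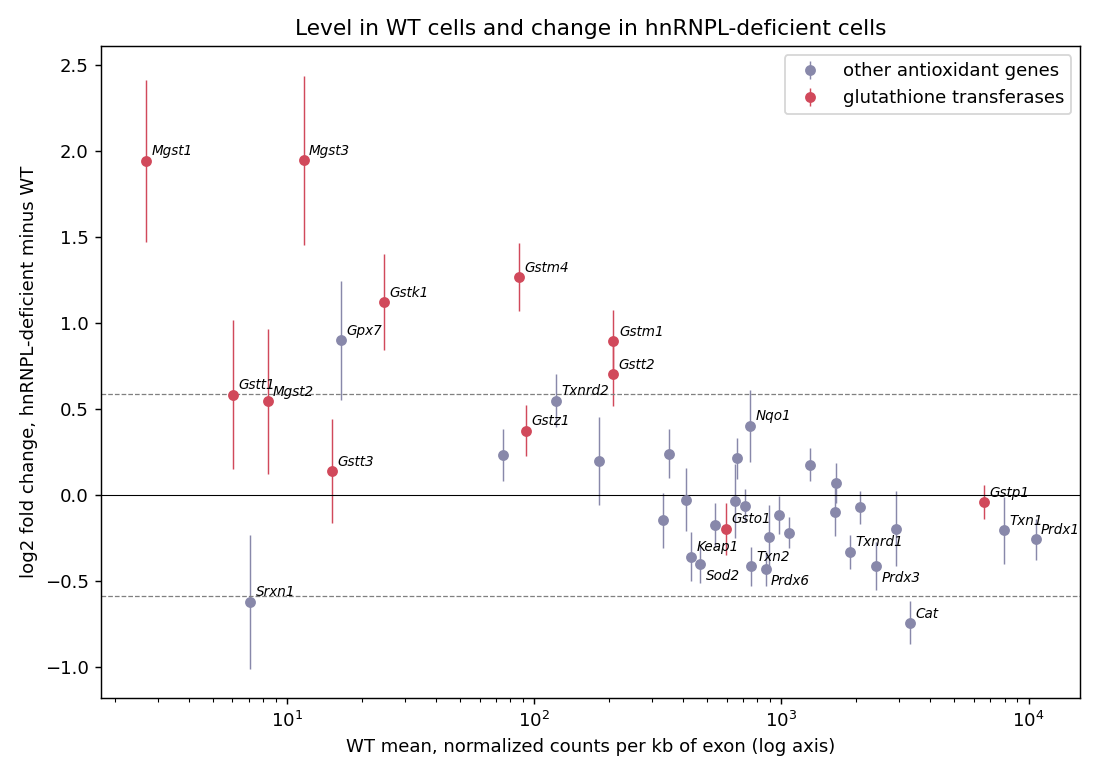
WT mean in normalized counts per kb of exon (log axis) against the log2 fold change of hnRNPL-deficient minus WT cells, with error bars of 1 standard error, for the 42 tested genes, of which the transferases and the genes that moved most or are most abundant are named. Dashed lines mark the 1.5-fold minimum, and the 6 transferases above it with an adjusted p under 0.1 have WT means from 2.68 to 209 per kb.

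The 7 further lists of the pathway held 120 genes, of which 93 were tested. Of these 5 were called higher and 9 lower, shares of 5.38% and 9.68%, against 7.28% and 4.08% of all tested genes. The counts of the single lists that follow are small and stand beside the same shares of all tested genes. Among 13 tested partners and regulators of NRF2 only *Maff*, a small MAF partner, was called, with a log2 fold change of -0.69 (adjusted p = 0.0981). *Sqstm1*, whose protein p62 binds KEAP1, was higher below the fold minimum, with 5551, 7492 and 6756 normalized counts in WT and 9581, 10865 and 8572 in hnRNPL-deficient cells (log2 fold change 0.56, adjusted p = 0.0356), and *Mafk* and *Bach2*, the latter a repressor at such elements, were lower below it (-0.30 and -0.35, adjusted p = 0.082 and 0.0622).

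For cystine import and glutathione turnover and export, 1 of 16 tested genes was called higher and 2 lower, and all 3 are transporters. *Abcc4*, an exporter of organic anions, had 2792, 2563 and 2442 normalized counts in WT and 1314, 1549 and 1384 in hnRNPL-deficient cells, without overlap (log2 fold change -0.88, adjusted p = 0.00259). *Abcc1*, which exports glutathione conjugates, was lower by a log2 fold change of -0.67 (adjusted p = 0.0212), and *Abcc5* was higher by 0.72 (adjusted p = 0.0117). *Slc7a11*, the cystine transporter and an NRF2 target, was low, at 54.5 to 115 in WT and 29.3 to 83.6 in hnRNPL-deficient cells (log2 fold change -0.42, adjusted p = 0.577).

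Of 14 tested genes on the list drawn up for NADPH supply 2 were called, both lower. The largest fold change of that list was that of *Me1*, the cytosolic malic enzyme, which was not called, with 22.0 normalized counts at most in WT and 198, 453 and 6.85 in hnRNPL-deficient cells (log2 fold change 2.26, adjusted p = 0.287). Its hnRNPL-deficient replicate 3 was below all WT libraries and the other 2 hnRNPL-deficient libraries were far above them. *Me2*, the mitochondrial malic enzyme, had 7423, 6259 and 5940 normalized counts in WT and 2642, 2650 and 2197 in hnRNPL-deficient cells, with no overlap and a log2 fold change of -1.39 (SE 0.12, adjusted p = 0.000546), and *Idh2*, the mitochondrial NADP-dependent isocitrate dehydrogenase, was lower by -0.61 (adjusted p = 0.041). *G6pdx* and *Pgd*, the NADPH-producing enzymes of the pentose phosphate pathway, were lower below the fold minimum (-0.37 and -0.41, adjusted p = 0.034 and 0.0277), and *Idh1* was higher below it (0.40, adjusted p = 0.0981). *Tfrc*, the transferrin receptor, was the only 1 of 8 tested genes of iron and heme handling that was called, lower by -0.65 (adjusted p = 0.0473).

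Among 11 tested relatives of the transferases *Gstp3* (log2 fold change 1.03, adjusted p = 0.087) and *Gsto2* (1.39, adjusted p = 0.056) were called higher, and *Vars*, a valyl-tRNA synthetase, lower (-0.72, adjusted p = 0.0466). *Gstp3* had 24.4, 15.6 and 14.5 normalized counts in WT and 36.1, 32.3 and 43.9 in hnRNPL-deficient cells. *Gsto2* had 6.96, 4.32 and 6.12 in WT and 17.1, 19.2 and 13.7 in hnRNPL-deficient cells, so that it reached the minimum of 10 only through the hnRNPL-deficient libraries and its call carries no weight of its own. Among 23 tested other thiol and peroxide enzymes *Sesn1* (0.80, adjusted p = 0.0049) and *Sesn2* (1.47, adjusted p = 0.000528), stress-induced sestrins, were called higher, and *Txnrd3* (781 to 923 normalized counts in WT and 395 to 446 in hnRNPL-deficient cells, adjusted p = 0.00311), a thioredoxin glutathione reductase, and *Msrb3* (-2.51, adjusted p = 0.0142), a methionine sulfoxide reductase, lower. *Sesn2* had 882, 1163 and 1074 normalized counts in WT and 2999, 2942 and 2649 in hnRNPL-deficient cells and did not overlap. *Msrb3* had 17.4, 27.7 and 22.2 normalized counts in WT and 3.61, 5.05 and 1.37 in hnRNPL-deficient cells, and it reached the minimum of 10 only through the WT libraries, which limits its call in the same way. *Sesn3* was higher and *Txnl4a* lower below the fold minimum (0.45 and -0.33). None of the 8 tested genes of the superoxide-producing NADPH oxidase was called by limma, and 3 had an unadjusted p under 0.05.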

How the data were processed

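RNA-seq was analysed for 3 WT and 3 hnRNPL-deficient mice, grouped by the labels. Per the study's methods, the authors trimmed reads with fastp 0.23.1, aligned them to mm10 with STAR 2.7.9a, counted them per gene and strand with featureCounts (GENCODE) and compared groups with DESeq2 1.38.2. The deposited table gives normalized counts, in the unit of a signal. How they were normalized is not given in the sources used here, and the values are counts divided by 1 constant per library, as DESeq2 size factors would give. The table's further columns with the authors' own comparison (log2 fold changes, a score, p-values) were not used.

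For the test, 1 was added to each normalized count and limma 3.58.1 (R 4.3.3) was fitted on the log2 scale, with trend, to the 17640 genes whose mean reached 10 normalized counts. Fold changes are on that scale, which understates those of low genes. P-values measure the spread between mice, 3 per group. In every library 100% of values were whole multiples (within 0.05 of a read) of 1 read. Count tests with edgeR 4.0.16 and DESeq2 1.42.0 were run on 5 libraries, without hnRNPL-deficient replicate 2, whose column did not pass an automatic check for whole reads. In a test on simulated data for this comparison, limma was run on 17640 genes. It recovered 98 of 100 genes changed 2-fold and 100 of 100 changed 4-fold, with 16 false calls. The recovery was not split by expression level, so it cannot be carried over to genes as low as *Mgst1* and *Mgst3*.

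Positions are those of GENCODE on GRCm38 and promoters those of RefSeq on GRCm38.p6. The members and lists were chosen with earlier results of these data known. Values are given for called genes, genes whose groups do not overlap, the leading member of each role and the classical NRF2 targets. The alternatives were other pseudocounts (0.5 and 5), filters, scalings, variance settings and thresholds, a replicate block, each library left out, the count tests and, added after the data were seen, a correction for GC content and length and a covariate for *Xist*.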

Additional observations from a re-analysis of the deposited data

How the results depend on the processing

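Over 42 tested genes and 834 comparisons with an alternative, 783 kept their direction and side of the threshold, 16 lost a call, 12 gained one and 23 changed sign, the last in 10 genes that were not called. The transferases called higher numbered 6 under most settings, 4 with a minimum mean of 50 or at a stricter threshold (adjusted p under 0.05, at least 2-fold), 7 (with *Gstm5*) with no minimum, 5 by DESeq2, where *Mgst3* had an adjusted p of 0.102, and 2 to 6 with each library left out; for all 46 genes this range was 3 to 6. The other genes called higher were 0, or 1 when scaled to equal totals, without a mean-variance trend, with the GC and length correction and with no minimum fold, and 0 to 1 with each library left out; this was *Gpx7* without the trend and with the GC and length correction (adjusted p = 0.0928 and 0.0927), and *Txnrd2* otherwise. The genes called lower were 1, 6 with no minimum fold and 0 at the stricter threshold. Over all genes 1284 were called higher and 719 lower, 1406 lower with no minimum fold, 610 and 216 at the stricter threshold, and 830 to 1111 and 478 to 696 with each library left out.

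The signs that changed were those of *Nfe2l2* (0.0040), *Hmox2* (0.019), *Sod1* (0.018) and *Gstp1* (0.076) with quantile normalization, *Prdx4* (0.028), *Gpx4* (0.021) and *Gstp1* (0.014) when scaled to equal totals, *Prdx4* (0.0029), *Gpx4* (0.062), *Glrx3* (-0.024) and *Gstp1* (0.041) with the GC and length correction, and *Gstp1* (0.012) by edgeR. With each library left out the log2 fold changes ranged from -0.37 to 0.020 for *Txn1*, from -0.16 to 0.17 for *Prdx4*, from -0.20 to 0.036 for *Sod1*, from -0.40 to 0.044 for *Gpx1*, from -0.21 to 0.22 for *Gpx4*, from -0.12 to 0.025 for *Gstp1* and from -0.048 to 0.36 for *Gstt3*. The causes were not tested.

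Samples with the same replicate number had correlated deviations from their group means of 0.43, 0.32 and 0.066, and WT replicate 3 correlated better with hnRNPL-deficient replicate 2 (0.31), so the numbers were not taken to pair the mice. With the replicate number as a block 1755 genes were called higher and 1018 lower, 7 of the members higher (*Gpx7* added, adjusted p = 0.081) and 1 lower. Genes with few reads, such as *Mgst1*, *Gstm5*, *Gpx3* and *Gsta4*, are limited by depth, and the count of 3 mice per group limits all tests.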
